A study of Mus musculus with 6 samples.

Results

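RNA of 53 genes that carry proteins between the endoplasmic reticulum (ER) and the Golgi was examined in mouse brain microvascular endothelial cells, the cells that line brain capillaries. The genes were chosen by name as parts of this transport machinery, at a time when earlier results of these data were known. They make up 8 role groups: 14 genes of the COPII coat and its assembly, 7 cargo receptors, 3 KDEL receptors, 8 p24 family genes, 9 COPI coat genes, 6 genes of the ARF cycle, 2 tethers and 4 SNAREs. All 53 were among the 43271 gene identifiers of the count table, and all 53 were among the 14101 that held enough counts to be tested. Cultures of the DTG group received dolutegravir (DTG, an inhibitor of the HIV integrase) at 5000 ng/ml for 24 h and gave 3 libraries. Cultures of the DMSO group received the vehicle dimethyl sulfoxide for 24 h and gave 3 libraries. Both groups were primary cultures from wild-type C57BL/6 mice, used between passages 2 and 6 as confluent monolayers on gelatin in medium with 5% serum and endothelial growth factors, without flow or other brain cells named in the labels. The labels do not say if the 3 libraries of a group stem from independent cultures. The p-values below therefore rest on the scatter among these libraries alone, part or all of which may be technical.

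Newly made secretory and membrane proteins leave the ER in vesicles coated with COPII, in which the GTPase SAR1 recruits an inner coat of SEC23 and SEC24 and an outer coat of SEC13 and SEC31. SEC24 and transmembrane cargo receptors select what is packed. COPI vesicles, formed with ARF GTPases, return receptors, escaped ER chaperones and machinery to the ER, and tethers and SNAREs let vesicles dock and fuse. Endothelial cells use this route for their junction proteins, transporters, matrix and the large glycoprotein von Willebrand factor.

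The libraries held between 51344169 and 56316335 counts in DTG and between 41162353 and 55998253 in DMSO. Library names carry a tag, P4 or P5, that the labels do not define: DTG replicate 1 and DMSO replicates 2 and 3 carry P5, and DTG replicates 2 and 3 and DMSO replicate 1 carry P4. The names also hold a number whose meaning is not given and which libraries share: it is 2, 2 and 3 in DTG replicates 1, 2 and 3, and 1, 1 and 3 in DMSO replicates 1, 2 and 3. Libraries of a group with the same number may not be independent, which bears on every n = 3 given here. For DTG replicate 1 the name in the count table reads DIG, while its title gives DTG as the treatment. Markers of brain endothelium summed to between 6644 and 6977 CPM (counts scaled to the size of the library) in DTG, against between 10763 and 11697 CPM in DMSO, and of the 10 that could be tested 7 were lower in DTG and 1 higher, against 29.3% lower and 27.4% higher among all genes tested. The 7 lower ones were Vwf (log2 change -1.64), Kdr (-1.22), Tek (-0.90), Pecam1 (-0.81), Tie1 (-0.79), Cldn5 (-0.67) and Erg (-0.55). The higher one was the glucose transporter gene Slc2a1, with 304, 404 and 388 CPM in DTG, against 146, 136 and 123 CPM in DMSO. Cdh5 and Ly6c1 did not pass. The barrier marker Slco1a4 was at 0 in all 6 libraries, and Mfsd2a did not exceed 0.196 CPM. The other lists were small. Mural markers summed to at most 2.47 CPM, fibroblast markers to at most 8.68, neuronal markers to at most 0.303 and oligodendrocyte markers to at most 1.87, with Rgs5, Kcnj8, Mog and Olig2 at 0 throughout. The astrocyte sum of 203 to 249 CPM in DTG, against 56.5 to 65.3 CPM in DMSO, was nearly all the connexin Gja1, with Aqp4 at 0. The microglia sum of 6.26 to 7.74 CPM in DTG, against 23.6 to 29.5 CPM in DMSO, was nearly all Tmem119, with P2ry12 and C1qa at 0. The part of these shifts in the results below was not tested. In bulk cultures, fewer cells of a type and less RNA per cell cannot be told apart.

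Transcripts of the ER-Golgi machinery were higher in DTG in most of the genes listed. Of the 53 genes, 44 rose, 3 fell (Ergic3, Tmed1 and Copz2) and 6 did not pass (Sec24b, Tmed4, Copg2, Arfgap2, Golga2 and Gosr2) by edgeR's quasi-likelihood test with Benjamini-Hochberg adjustment over all 14101 genes and a threshold of 0.05. Of all genes tested, 27.4% were higher and 29.3% lower by the same rule. The median log2 change was 0.82 over the 53 genes and -0.01 over all genes tested. At the same threshold 56.7% of all genes passed in either direction. A log2 change of 1 or more was reached by 18 of the 53 and by 6.28% of all genes, and one of -1 or less by 0 of the 53 and by 8.35% of all genes. In 46 of the 53 every DTG library lay above every DMSO library, and in 3 every DTG library lay below, against 31.1% and 33.1% of all genes. Summed over the 53 genes, expression was 12988 ± 976 CPM in DTG and 6953 ± 85.1 CPM in DMSO (SD, n = 3 each), a ratio of 1.87. These genes took 1.14%, 1.28% and 1.26% of the counts in DTG replicates 1, 2 and 3, against 0.738%, 0.747% and 0.727% in DMSO replicates 1, 2 and 3. The plot of log2 changes by role shows that members of 1 role group differed widely in their change, as with Sec24d and Sec24b in the COPII coat.

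**Figure D1:**
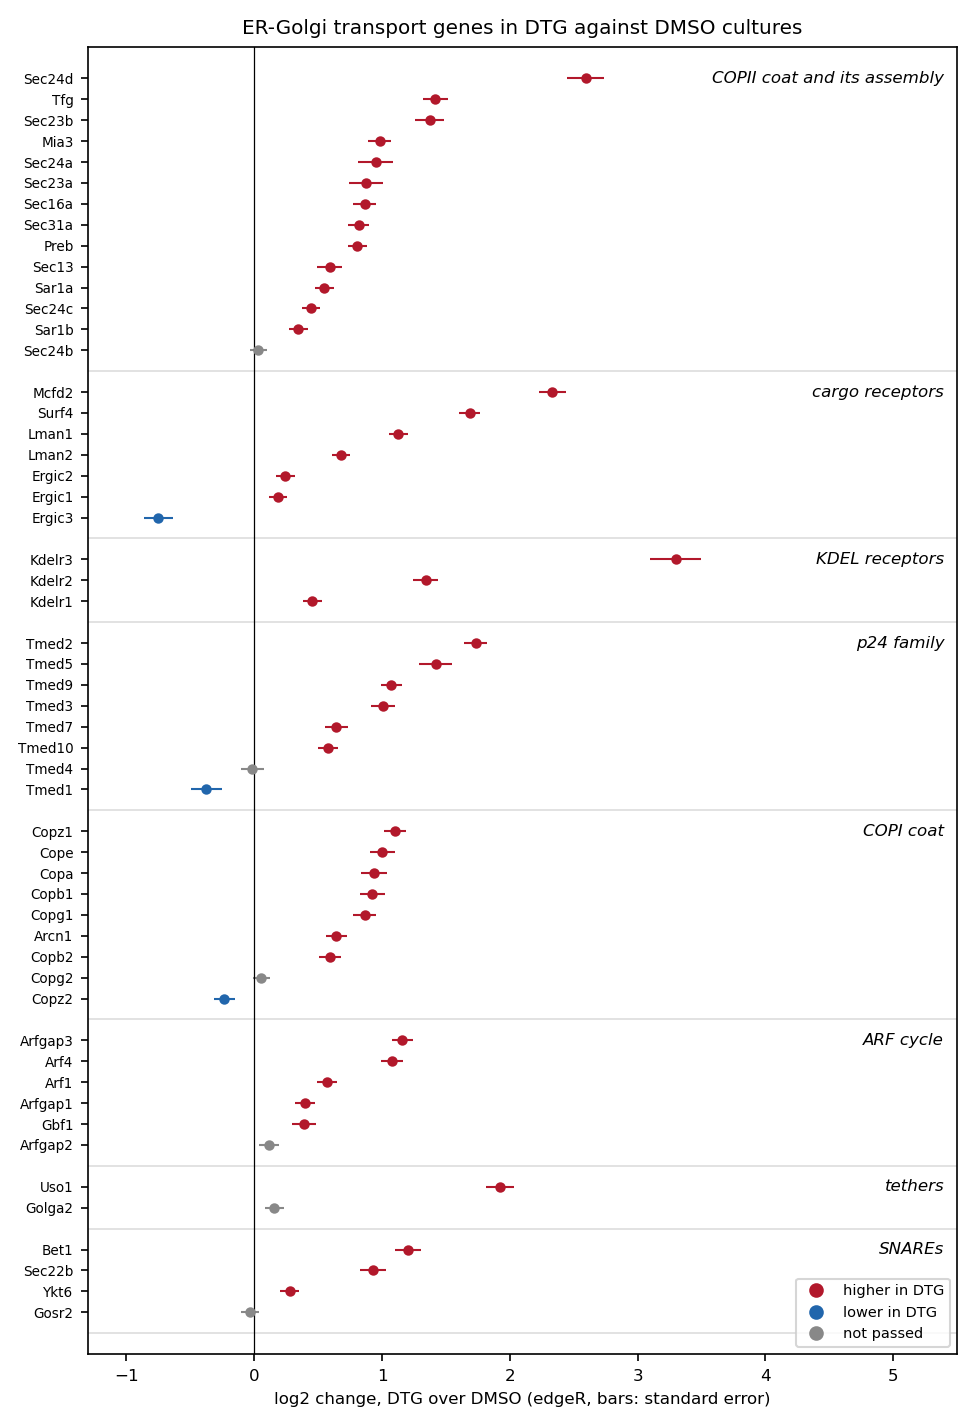
Log2 change of each of the 53 ER-Golgi transport genes, DTG over DMSO, on the horizontal axis, with genes grouped by role and ordered by change down the page. Points are edgeR estimates from 3 DTG and 3 DMSO libraries, bars are standard errors, red marks genes higher in DTG, blue lower and grey not passed; Kdelr3 (3.30), Sec24d (2.59) and Mcfd2 (2.33) lie farthest to the right and Ergic3 (-0.75) farthest to the left.

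The 250 bases before the annotated start of Sec24d and Kdelr3, the genes with the steepest changes, are shown because each holds a copy of TGACGTG, a sequence with an ACGT core that stress-activated basic leucine zipper factors such as ATF6 and XBP1 are known to bind. Sequences are from RefSeq (build GRCm38.p6), 5′ to 3′ along the gene's strand, with TGACGTG or its reverse complement CACGTCA in capitals. Sec24d lies on the plus strand at chr3:123267246-123267495 and Kdelr3 on the plus strand at chr15:79516158-79516407.
Sec24d: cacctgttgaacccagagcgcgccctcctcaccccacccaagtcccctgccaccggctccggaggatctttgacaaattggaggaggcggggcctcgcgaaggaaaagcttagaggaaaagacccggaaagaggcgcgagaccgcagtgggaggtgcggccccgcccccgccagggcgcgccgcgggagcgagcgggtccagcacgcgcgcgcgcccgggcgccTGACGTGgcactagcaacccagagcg
Kdelr3: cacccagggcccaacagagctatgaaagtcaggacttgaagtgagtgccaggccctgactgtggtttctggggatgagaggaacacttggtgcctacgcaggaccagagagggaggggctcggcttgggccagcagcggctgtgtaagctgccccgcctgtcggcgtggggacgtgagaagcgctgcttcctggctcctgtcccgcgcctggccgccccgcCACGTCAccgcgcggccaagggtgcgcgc

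Promoter windows, 250 bases before to 50 after a start, were found for 48 of the 53 genes. TGACGTG on either strand was present in 8 of these 48 (16.7%), against 2.22% of 27025 genes with a window, 3.22% of the 10331 of those that were tested here and 5.60% of the 625 of them that passed with a log2 change of at least 1. All 8 genes rose, but so did 39 of the 48. The windows of Mcfd2 (log2 change 2.33), Uso1 (1.92), Surf4 (1.69), Tmed5 (1.42), Tfg (1.42) and Sec23b (1.37) did not hold TGACGTG. The 6 genes with the sequence besides Sec24d and Kdelr3 are Mia3, Copb1, Copb2, Arf1, Sec23a and Gbf1. Their log2 changes lay between 0.39 and 0.98. The 27 bases around each of their copies are given next to show how the flanks differ.
Mia3, minus strand, chr1:183369635-183369661: gagcccttgcTGACGTGtcactcgcag
Copb1, minus strand, chr7:114254691-114254717: cgcccccttcCACGTCAgccaaggact
Copb2, plus strand, chr9:98563715-98563741: ccggaagttcCACGTCAgtgggttggc
Arf1, minus strand, chr11:59228230-59228256: cggcaggcgcTGACGTGgctgccgtca
Sec23a, minus strand, chr12:59011995-59012021: tcctccccttTGACGTGgcagaggcgg
Gbf1, plus strand, chr19:46152537-46152563: ggctagttacCACGTCAgtgagctgac
The longer ER stress element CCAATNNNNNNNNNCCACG, the related element ATTGGNCCACG and the C/EBP-ATF element TGATGCAA were in none of the 48 genes' windows on either strand, against 0.137%, 0.0444% and 1.03% of all genes with a window. Of the 625 genes that passed with a log2 change of at least 1, 1.76%, 0.8% and 4.32% held these elements, in the same order. With shares this low, no match among 48 genes says little. A match is a run of letters, not a shown binding site, and no match says only that these letters are not in this window.

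COPII coat genes rose together but unequally. Of the 14, 13 rose and none fell, with a median log2 change of 0.84, and Sec24b did not pass. Sec24d encodes 1 of the 4 SEC24 proteins, the coat subunits that bind cargo signals. It had 187, 286 and 266 CPM in DTG replicates 1, 2 and 3, against 42.6, 40.5 and 39.4 CPM in DMSO replicates 1, 2 and 3. Every DTG library was far above every DMSO library, and DTG replicate 1 was the lowest of its group. The log2 change was 2.59 ± 0.14 (SE, a 6.03-fold rise, edgeR adjusted p = 6.37e-07). Sec24a rose by a log2 change of 0.95 ± 0.14 and Sec24c by 0.44 ± 0.07. Sec24b had 85.0, 88.1 and 87.2 CPM in DTG, against 84.6, 82.8 and 87.2 CPM in DMSO, and the groups overlapped (log2 change 0.03 ± 0.07, edgeR adjusted p = 0.710; -0.14 with library-size scaling).

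SEC23 is the coat subunit that activates SAR1's GTPase. Its gene Sec23b had 183, 245 and 243 CPM in DTG, against 87.3, 91.9 and 80.1 CPM in DMSO (log2 change 1.37 ± 0.12, edgeR adjusted p = 6.78e-06). Sec23a had 77.5, 114 and 108 CPM in DTG, against 54.7, 52.0 and 56.9 CPM in DMSO (log2 change 0.87 ± 0.13, edgeR adjusted p = 2.70e-04). Neither gene's groups overlapped. Tfg, which organises ER exit sites, had 131, 165 and 156 CPM in DTG, against 52.8, 55.7 and 60.4 CPM in DMSO (log2 change 1.42 ± 0.10, edgeR adjusted p = 2.30e-06). Mia3 (TANGO1), needed for export of bulky cargo such as procollagen, rose by a log2 change of 0.98 ± 0.09, Sec16a, a scaffold of exit sites, by 0.86 ± 0.09, and Preb (SEC12), which loads SAR1 with GTP, by 0.81 ± 0.08. Outer coat genes rose too, Sec31a by 0.82 ± 0.08 and Sec13 by 0.59 ± 0.10. The GTPase genes rose less, Sar1a by 0.55 ± 0.07 and Sar1b by 0.35 ± 0.07, and Sar1b did not pass when libraries were scaled by library size alone (edgeR adjusted p = 0.0597).

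**Figure D2:**
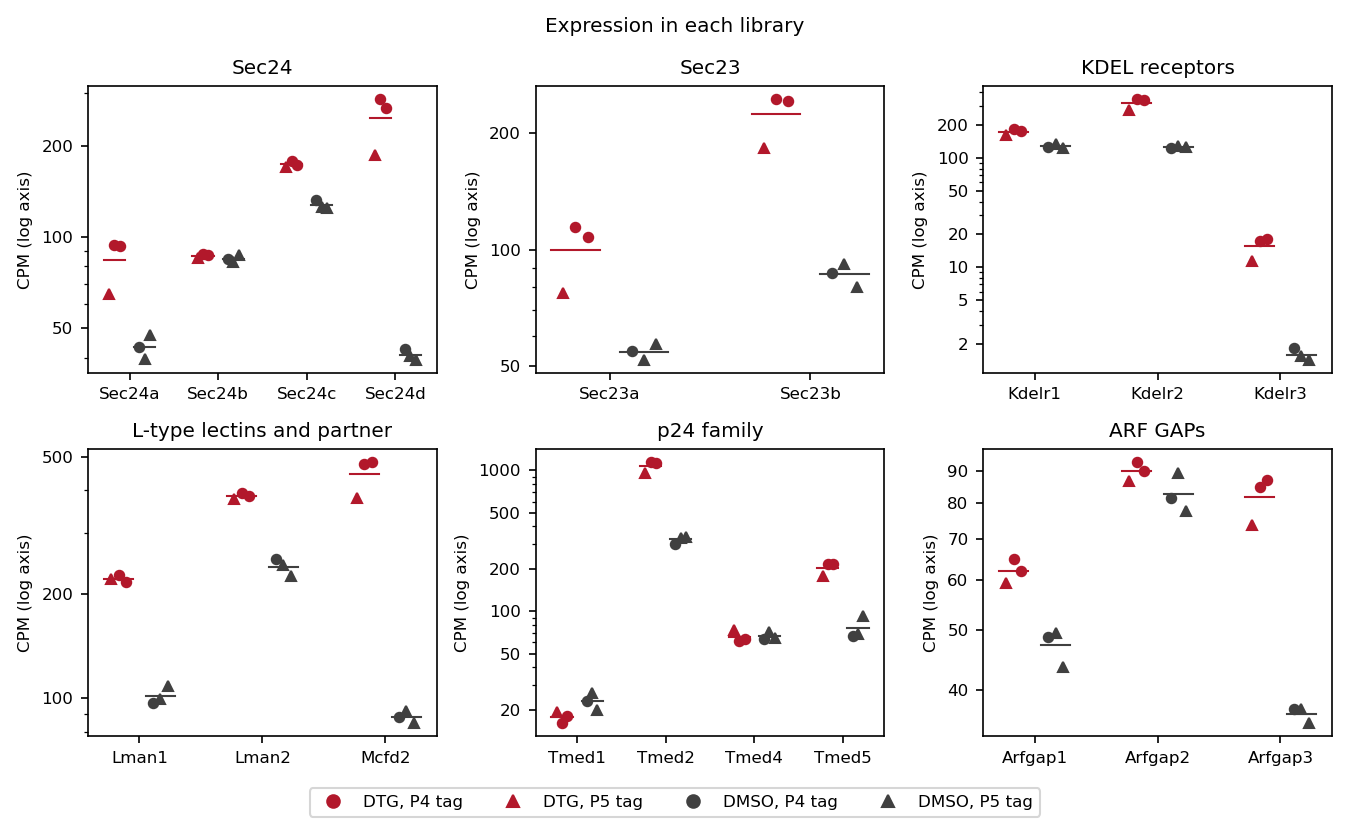
Expression of paralogues and related genes in each library, in CPM on a log axis, with DTG (red) left of DMSO (grey) for each gene, circles for P4 and triangles for P5 libraries and a line at the mean of 3 libraries. The groups are far apart for Sec24d, Kdelr3 and Mcfd2 and overlap for Sec24b, Tmed4 and Arfgap2; the P5 library of DTG is the lowest of its group for Sec24d, Sec23b and Mcfd2.

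Paralogues were set against each other as log2 ratios within each library, in 16 pairs. In all 16 the DTG and DMSO libraries did not overlap, which gives a two-sided exact permutation p of 0.1, the smallest that 3 libraries against 3 allow, and 0.1 after adjustment over the 16 pairs. The pairs are not independent, since 6 of them reuse the 4 Sec24 genes and 3 the KDEL receptor genes. For single genes, groups did not overlap in 31.1% (all DTG higher) and 33.1% (all DTG lower) of all tested; no such share was computed for other pairs of genes. The log2 ratio of Sec24d to Sec24c averaged 0.48 ± 0.30 in DTG and -1.63 ± 0.02 in DMSO (SD, n = 3 each). Sec24d gained relative to all 3 paralogues, by 1.63 against Sec24a, 2.11 against Sec24c and 2.52 against Sec24b. Sec23b gained 0.51 on Sec23a, while Sar1b lost ground to Sar1a, with a difference of -0.21.

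Per length of the principal transcript, the composition of the SEC24 family shifted. Sec24d held 42.6%, 50.6% and 49.4% of the family's CPM per kilobase (kb) in DTG, against 17.1%, 17.1% and 16.2% in DMSO. It was the most abundant of the 4 in every DTG library, whereas Sec24c was in every DMSO library. Sec24c held 29.9% ± 3.49 in DTG and 46.0% ± 0.92 in DMSO, and Sec24b 13.0% ± 1.53 in DTG and 26.6% ± 0.71 in DMSO (SD, n = 3 each). The share of Sec24a overlapped between groups, at 9.63% ± 0.75 in DTG and 10.6% ± 0.85 in DMSO (two-sided exact permutation p = 0.2). The summed level of the family was 132 ± 16.9 CPM per kb in DTG and 62.3 ± 1.47 in DMSO, a ratio of 2.12. In the SEC23 family Sec23b was already the larger part, with 76.9% ± 0.87 in DTG and 70.0% ± 2.40 in DMSO, and the family sum had a ratio of 2.36. With the length of all exons merged, Sec23b held 63.3% in DTG and 54.9% in DMSO. In the plot of family composition, the SEC24 and KDEL receptor bars differ most between DTG and DMSO.

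**Figure D3:**
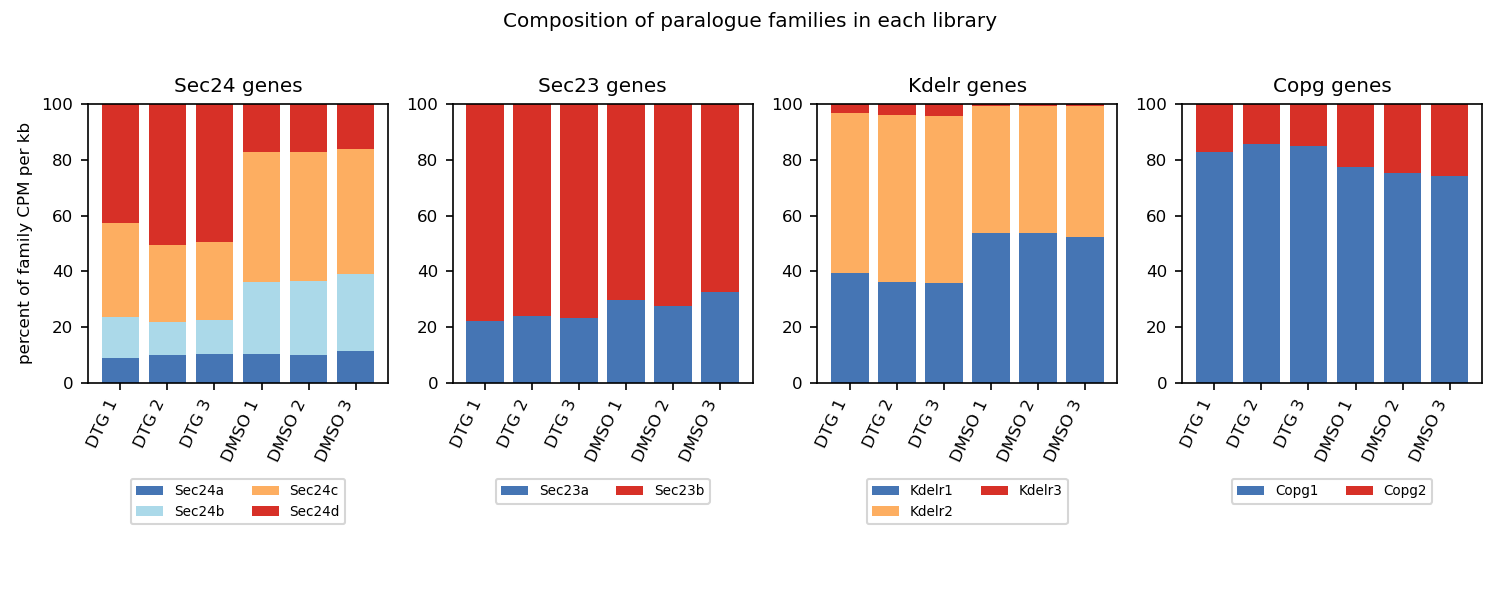
Share of each paralogue in its family's summed CPM per kb, in percent on the vertical axis, for each of the 3 DTG and 3 DMSO libraries, with the families SEC24, SEC23, KDEL receptors and COPI gamma subunits. Sec24d (red) fills 42.6% to 50.6% of the SEC24 bars in DTG, against 16.2% to 17.1% in DMSO.

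Cargo receptors, most of them membrane proteins that link soluble cargo to coats, included some of the steepest rises and the largest fall among the 53 genes. Of the 7, 6 rose and 1 fell, with a median log2 change of 0.68. Mcfd2, the soluble calcium-binding partner of LMAN1 in exporting coagulation factors V and VIII in humans, had 378, 476 and 481 CPM in DTG, against 88.5, 91.8 and 84.7 CPM in DMSO. Its groups were widely apart (log2 change 2.33 ± 0.10, a 5.04-fold rise, edgeR adjusted p = 1.55e-07). Lman1 (ERGIC-53), the lectin of that pair, had 222, 227 and 217 CPM in DTG, against 96.8, 99.5 and 109 CPM in DMSO. The log2 change of Lman1 was 1.13 ± 0.08 (edgeR adjusted p = 1.74e-06), and its DTG libraries lay close together. Lman2 (VIP36), a related lectin of the early secretory pathway, rose less, by 0.68 ± 0.07.

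Surf4, a receptor known in mice for exporting lipoproteins, had 659, 752 and 724 CPM in DTG, against 220, 226 and 218 CPM in DMSO (log2 change 1.69 ± 0.08, edgeR adjusted p = 2.01e-07). ERGIC2 and ERGIC3 are homologues of a pair of yeast proteins that cycle between ER and Golgi. Ergic3 fell, with 75.4, 60.5 and 60.0 CPM in DTG, against 107, 124 and 99.1 CPM in DMSO (log2 change -0.75 ± 0.11, edgeR adjusted p = 2.87e-04). All 3 DTG libraries lay below all 3 DMSO libraries. Ergic2, at 84.2 ± 4.20 CPM in DTG and 71.2 ± 2.36 CPM in DMSO, rose by 0.24 ± 0.07, and Ergic1, at 104 ± 2.30 CPM in DTG and 91.0 ± 4.74 CPM in DMSO, by 0.19 ± 0.07 (SD of levels, n = 3 each, SE of changes). The call of Ergic2 was lost without DMSO replicate 1 or 2 or DTG replicate 2 or 3, and that of Ergic1 without any single library other than DTG replicate 1 (edgeR adjusted p up to 0.0656 for Ergic2 and 0.117 for Ergic1). Exons of Ergic2 lie opposite those of Far2 over 12.4% of their length.

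KDEL receptors bind the C-terminal retrieval signal of soluble ER chaperones in the Golgi and return them in COPI vesicles. All 3 rose. Kdelr3, a rare transcript in the vehicle cultures, had 11.4, 17.5 and 18.3 CPM in DTG, against 1.81, 1.53 and 1.43 CPM in DMSO. No DTG library came near a DMSO library (log2 change 3.30 ± 0.20, a 9.84-fold rise, edgeR adjusted p = 8.89e-07). Kdelr2 had 273, 347 and 342 CPM in DTG, against 124, 130 and 126 CPM in DMSO (log2 change 1.34 ± 0.10, edgeR adjusted p = 2.95e-06). Kdelr1 rose by 0.45 ± 0.08.

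The gene order within the receptor family also changed. Per length, Kdelr1 held 37.1% ± 2.06 of the family in DTG and 53.2% ± 0.72 in DMSO, and Kdelr2 held 59.1% ± 1.51 in DTG and 46.0% ± 0.77 in DMSO (SD, n = 3 each). Kdelr2 was the larger in every DTG library and Kdelr1 in every DMSO library, although with the length of all exons merged Kdelr1 held 49.2% and Kdelr2 49.9% in DMSO. Kdelr3 stayed a minor part, at 3.72% ± 0.55 in DTG and 0.751% ± 0.098 in DMSO. The summed level of the receptors per kb had a DTG to DMSO ratio of 1.97.

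The p24 proteins, encoded by Tmed genes, form complexes that cycle in COPII and COPI vesicles and serve cargo such as proteins anchored by glycosylphosphatidylinositol. Of the 8 genes, 6 rose, 1 fell and 1 did not pass, with a median log2 change of 0.83. Tmed2 had 961, 1139 and 1119 CPM in DTG, against 300, 330 and 339 CPM in DMSO. All DTG libraries were higher (log2 change 1.73 ± 0.09, edgeR adjusted p = 4.60e-07). Per length it was the most abundant of the 53 genes in DTG, with 517 ± 46.9 CPM per kb, and ranked 3 in DMSO, with 156 ± 9.91 CPM per kb, behind Arf1 and Tmed10 (SD, n = 3 each). Tmed10, with which TMED2 assembles, rose by a smaller log2 change of 0.58 ± 0.08.

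Tmed5 had 179, 217 and 216 CPM in DTG, against 67.2, 68.8 and 92.6 CPM in DMSO (log2 change 1.42 ± 0.13, edgeR adjusted p = 1.21e-05). DMSO replicate 3 was the highest of its group and still below every DTG library. Tmed9 rose by 1.07 ± 0.08, Tmed3 by 1.01 ± 0.09 and Tmed7 by 0.64 ± 0.09. For Tmed3 it was DTG replicate 1 that was highest, with 145, 126 and 129 CPM in DTG, against 64.8, 72.9 and 60.3 CPM in DMSO. Tmed1 had 19.4, 16.1 and 18.0 CPM in DTG, against 23.1, 26.4 and 19.8 CPM in DMSO (log2 change -0.37 ± 0.12, edgeR adjusted p = 0.0218). The groups of Tmed1 were separated narrowly, and its call was lost without DMSO replicate 1 or 2 or DTG replicate 2 or 3 (edgeR adjusted p up to 0.106). Tmed4, at 66.0 ± 6.30 CPM in DTG and 66.6 ± 4.35 CPM in DMSO (SD, n = 3 each), did not pass (edgeR adjusted p = 0.907). Of the exon length of Tmed1, 13.6% lies opposite Dnm2, which rose by 0.36, and 9.48% of that of Tmed7 is shared with Ticam2 on the same strand.

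The common subunit genes of the COPI coat rose together, while the alternative subunit genes Copg2 and Copz2 did not. Of the 9 genes, 7 rose, 1 fell and 1 did not pass, with a median log2 change of 0.87. The 7 that rose, Copa, Copb1, Copb2, Copg1, Copz1, Cope and Arcn1 (the delta subunit), changed by between 0.59 and 1.10 on the log2 scale. Copa, the alpha subunit, had 474, 617 and 594 CPM in DTG, against 298, 289 and 292 CPM in DMSO (log2 change 0.94 ± 0.10, edgeR adjusted p = 3.31e-05). Copz1, the common zeta subunit, had 346, 402 and 391 CPM in DTG, against 178, 187 and 166 CPM in DMSO (log2 change 1.10 ± 0.09, edgeR adjusted p = 4.09e-06). Neither gene's groups overlapped. Cope rose by 1.00 ± 0.10, Copb1 by 0.92 ± 0.10, Copg1 by 0.87 ± 0.09, Arcn1 by 0.64 ± 0.08 and Copb2 by 0.59 ± 0.08.

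The alternative zeta gene, Copz2, had 17.8, 18.5 and 17.9 CPM in DTG, against 21.3, 21.6 and 20.9 CPM in DMSO (log2 change -0.23 ± 0.08, edgeR adjusted p = 0.0310). Its DTG libraries were all lower, but the call was lost by DESeq2 (adjusted p = 0.0513) and without any single library other than DMSO replicate 3 (edgeR adjusted p up to 0.168). Copg2, the alternative gamma gene, had 81.3, 80.6 and 81.5 CPM in DTG, against 75.1, 79.6 and 79.3 CPM in DMSO, and did not pass although the groups did not overlap (log2 change 0.06 ± 0.07, edgeR adjusted p = 0.502; -0.11 with library-size scaling). Exons of Copg2 share 912 bases (17.8% of its exon length) with Mest on the opposite strand, and Mest fell by 1.26 on the log2 scale. The strand setting of the counting is not given in the sources used here, so reads of the pair may have been counted together. Per length, Copz1 held 92.1% ± 0.49 of the zeta pair in DTG and 82.2% ± 0.67 in DMSO, and Copg1 held 84.4% ± 1.39 of the gamma pair in DTG and 75.6% ± 1.54 in DMSO (SD, n = 3 each). With the length of all exons merged, Copz1 held 92.7% in DTG and 83.4% in DMSO, and Copg1 72.5% in DTG and 60.1% in DMSO.

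ARF GTPases recruit COPI when loaded with GTP by GBF1, and ARFGAP proteins end the cycle. Of the 6 genes, 5 rose and none fell, with a median log2 change of 0.48. Arf4 had 248, 288 and 290 CPM in DTG, against 129, 126 and 136 CPM in DMSO (log2 change 1.08 ± 0.08, edgeR adjusted p = 4.33e-06). Arf1 had 620, 663 and 650 CPM in DTG, against 439, 460 and 406 CPM in DMSO (log2 change 0.57 ± 0.08, edgeR adjusted p = 1.65e-04). Both pairs of groups were separated, and the log2 ratio of Arf4 to Arf1 was higher in DTG by 0.50. Arfgap3 had 73.7, 84.7 and 87.0 CPM in DTG, against 37.2, 37.3 and 35.4 CPM in DMSO (log2 change 1.16 ± 0.08, edgeR adjusted p = 2.84e-06). Arfgap1 rose by 0.40 ± 0.08 and Gbf1 by 0.39 ± 0.09. Gbf1 did not pass with library-size scaling (edgeR adjusted p = 0.0601). Arfgap2 had 86.7, 92.9 and 89.9 CPM in DTG, against 81.5, 89.2 and 77.5 CPM in DMSO, which overlapped (log2 change 0.12 ± 0.08, edgeR adjusted p = 0.218). The log2 ratio of Arfgap3 to Arfgap2 was higher in DTG by 1.03. Of the exon length of Arfgap2, 33.4% lies opposite 1110051M20Rik (15.8 CPM in DTG, 19.9 CPM in DMSO, log2 change -0.33, edgeR adjusted p = 0.0130). Of that of Arf4, 14.6% lies opposite Pde12 (27.3 CPM in DTG, 20.6 CPM in DMSO, log2 change 0.41, edgeR adjusted p = 0.00332). Reads of these pairs may also have been counted together, and the part of this in the ratios above was not tested.

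Tethers hold an arriving vesicle before it fuses. Uso1 (p115) had 462, 610 and 603 CPM in DTG, against 144, 141 and 156 CPM in DMSO. Its groups were widely separated (log2 change 1.92 ± 0.11, a 3.79-fold rise, edgeR adjusted p = 7.39e-07). Golga2 (GM130), the Golgi matrix protein that binds p115, had 85.3, 93.7 and 91.9 CPM in DTG, against 83.3, 82.8 and 77.0 CPM in DMSO (log2 change 0.16 ± 0.07, edgeR adjusted p = 0.0985). Without DTG replicate 1, Golga2 passed with a log2 change of 0.23 (edgeR adjusted p = 0.0172).

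SNAREs bring the membranes together. Of the 4, 3 rose and none fell. Bet1 had 51.1, 51.0 and 47.8 CPM in DTG, against 19.8, 20.4 and 24.9 CPM in DMSO (log2 change 1.20 ± 0.10, edgeR adjusted p = 6.03e-06). Sec22b had 111, 145 and 143 CPM in DTG, against 67.7, 71.0 and 70.3 CPM in DMSO (log2 change 0.93 ± 0.10, edgeR adjusted p = 4.09e-05). Both genes' groups were separated. Ykt6 rose by 0.28 ± 0.07, a call lost with library-size or upper-quartile scaling (edgeR adjusted p = 0.231 and 0.0504). Gosr2 (membrin), the most abundant SNARE gene of the 4 per length, had 360, 364 and 360 CPM in DTG, against 364, 393 and 353 CPM in DMSO, and the groups overlapped (log2 change -0.03 ± 0.07, edgeR adjusted p = 0.710). With library-size scaling Gosr2 passed as lower, by -0.20 (edgeR adjusted p = 0.0336).

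Levels per length reordered in the treated cultures. In DTG the order began with Tmed2, Arf1 (324 ± 11.0 CPM per kb), Tmed10 (282 ± 10.4), Copz1 (227 ± 17.7), Mcfd2 (218 ± 28.4) and Surf4 (217 ± 14.5), of which the last 3 lay within each other's SD. In DMSO it began with Arf1 (218 ± 13.9 CPM per kb), Tmed10 (189 ± 13.0), Tmed2, Gosr2 (113 ± 6.31) and Copz1 (106 ± 6.36). Mcfd2 ranked 5 of 53 in DTG and 25 in DMSO, and Sec24d 28 in DTG and 51 in DMSO. Ergic3 ranked 33 in DTG and 10 in DMSO.

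DTG replicate 1, the single DTG library with the P5 tag, was the lowest DTG library for 40 of the 44 genes that rose. Differences of log2(mean CPM + 0.5) were therefore also taken within each tag. They used 2 DTG libraries and 1 DMSO library for P4, and 1 DTG library and 2 DMSO libraries for P5. The sign within a tag is fixed for the 47 genes that passed, since in each of them the DTG and DMSO libraries do not overlap, so only the sizes are given. The median over the 53 genes was 0.84 within P4 and 0.65 within P5, and the difference was smaller within P5 for 38 of the 44 that rose. Sec24d differed by 2.68 within P4 and 2.22 within P5, and Ergic3 by -0.82 within P4 and -0.56 within P5. With 1 library on a side these values carry no test, and what the tag stands for was not tested. A fit to all libraries with the tag as a term gave 43 of the 53 genes higher and 3 lower. Their median log2 change was then 0.77, and Ergic1 lost its call (edgeR adjusted p = 0.0824). Over all genes tested this fit gave 3846 higher and 4165 lower. The plot of differences within tags shows most points below the diagonal, with Tmed3, at 0.97 within P4 and 1.11 within P5, above it.

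**Figure D4:**
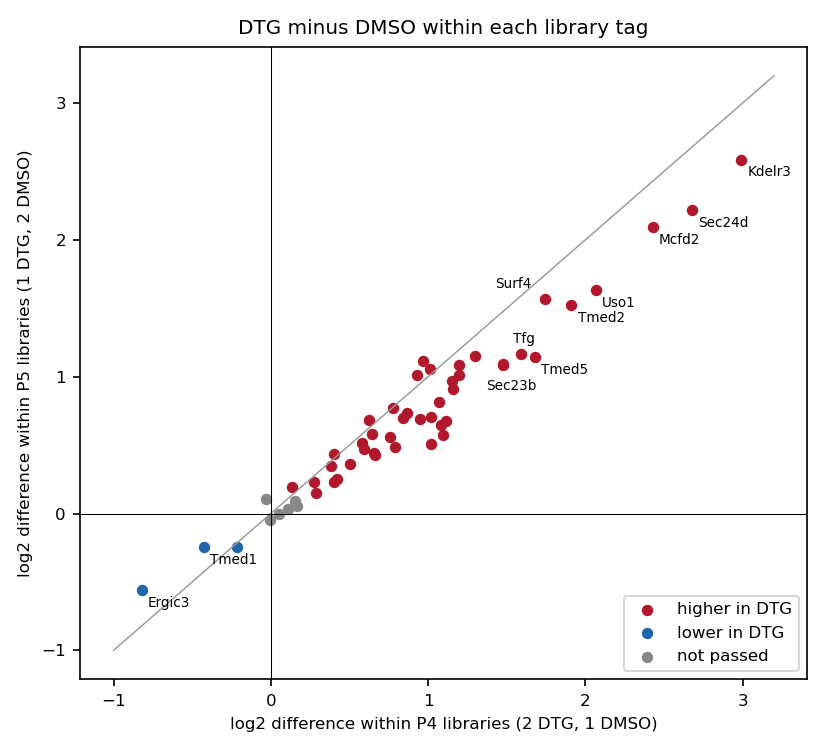
Difference of log2(mean CPM + 0.5), DTG minus DMSO, within P4 libraries on the horizontal axis (2 DTG, 1 DMSO). The same difference within P5 libraries is on the vertical axis (1 DTG, 2 DMSO). Each of the 53 genes is 1 point, and the line marks equal values. Red points are higher in DTG, blue lower and grey not passed, and 38 of the 44 red points lie below the line.

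The rest of the pathway was read from 6 lists of other genes, 101 in all, of which 99 could be tested; Sec16b and Tmed6 had too few counts. Of the 99, 44 were higher in DTG (44.4%) and 13 lower (13.1%), against 27.4% and 29.3% of all genes tested. A smaller share rose than among the 53, where 83.0% did. Neither difference was tested. Of 17 other genes of COPII, export and the p24 family, 9 rose and 3 fell, with a median log2 change of 0.19. Among them Yipf5 rose by 1.08 ± 0.09 and Mia2, a partner of TANGO1, by 1.01 ± 0.10, while the rare outer coat gene Sec31b fell to 0.806 ± 0.266 CPM in DTG, against 1.68 ± 0.309 CPM in DMSO (SD, n = 3 each), and Tmed8 fell by 0.31. Of 14 Rab, SNARE and fusion genes, 9 rose and 1 fell: the syntaxin gene Stx5a rose by 0.99 ± 0.12 and Scfd1, which binds syntaxin 5, by 0.69 ± 0.09, whereas Rab1b, a GTPase of ER to Golgi transport, fell by 0.32 on the log2 scale.

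TRAPP, a complex that activates Rab GTPases, showed calls in both directions. Of its 14 genes, 3 rose and 4 fell, with a median log2 change of 0.04. Trappc4 rose by 0.66 ± 0.10 and Trappc6b by 0.51 ± 0.07, and Trappc9 fell by 0.48 and Trappc1 by 0.40. Of 20 genes of the NRZ and COG tethers, golgins and stacking proteins, 10 rose and 1 fell. Those named are Nbas (1.09 ± 0.10) and Rint1 (0.95 ± 0.09), both of the NRZ tether that receives COPI vesicles at the ER. Cog4, also named, fell (log2 change -0.33). Of 7 other ARF genes 5 rose and none fell, among them Arf2 (0.98 ± 0.10) and Arl1 (0.65 ± 0.08). Of 27 genes of later steps (adaptor complexes, clathrin, retromer and exocyst), 8 rose and 4 fell, with a median log2 change of 0.11. Ap2m1 rose by 0.50 ± 0.08 and Ap3d1 by 0.45 ± 0.08, and the exocyst genes Exoc6 and Exoc4 fell by 0.45 and 0.37. In the plot of shares by list, TRAPP and the later steps have shares of higher genes near that of all genes, 21.4% and 29.6% against 27.4%. Their shares of lower genes were 28.6% and 14.8%, against 29.3% of all genes.

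**Figure D5:**
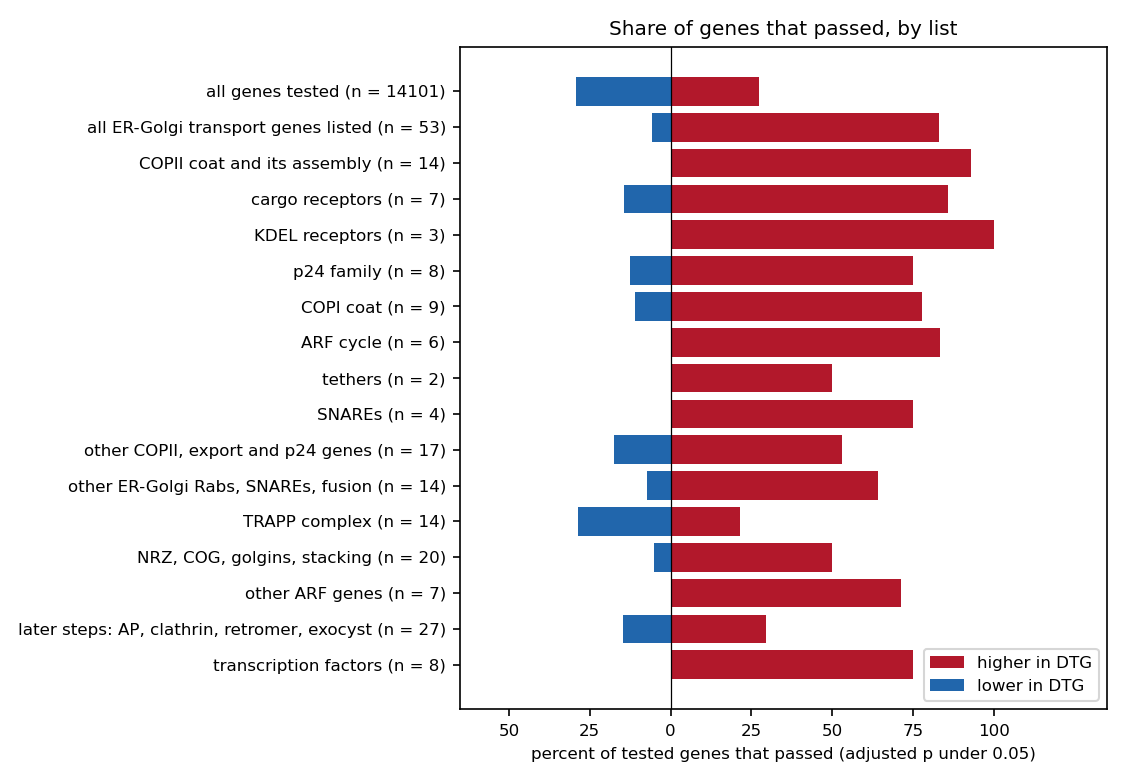
Percent of tested genes that passed in each list, higher in DTG to the right and lower in DTG to the left of 0, with the number of genes tested beside each name. All genes tested stand at 27.4% higher and 29.3% lower, the 53 ER-Golgi transport genes at 83.0% higher and 5.66% lower, and the TRAPP complex at 21.4% higher and 28.6% lower.

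Transcription factors known to act on secretory pathway genes were a last list. Of the 8, 6 rose and none fell, against 27.4% higher and 29.3% lower among all genes tested. This difference was not tested. Atf4, the main factor of the integrated stress response, had 501, 781 and 762 CPM in DTG, against 123, 137 and 115 CPM in DMSO (log2 change 2.45 ± 0.16, edgeR adjusted p = 3.24e-06). Xbp1 had 250, 284 and 295 CPM in DTG, against 100, 118 and 110 CPM in DMSO (log2 change 1.34 ± 0.09, edgeR adjusted p = 2.07e-06). Gene counts do not separate spliced from unspliced Xbp1. Atf6 rose by 0.97 ± 0.09, Creb3 by 0.86 ± 0.12, Creb3l2 by 0.66 ± 0.09 and Tfe3 by 0.24 ± 0.09 (edgeR adjusted p of Tfe3 = 0.0474). The groups of Tfe3 overlapped, with 66.6, 82.5 and 78.5 CPM in DTG, against 68.2, 62.7 and 61.9 CPM in DMSO. Atf6b, at 83.6 ± 2.14 CPM in DTG and 77.3 ± 9.58 CPM in DMSO, and the rare Creb3l1, at 0.942 ± 0.0545 CPM in DTG and 0.743 ± 0.0862 CPM in DMSO (SD, n = 3 each), did not pass.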

How the data were processed

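The authors deposited raw, unnormalized counts for Ensembl genes in a single table. The build was GRCm39, per the submitters' processing notes. The aligner, the counting tool with its strand setting, and the annotation were not given in the sources used here. Per the labels' protocols, libraries were made with a strand-preserving poly(A) kit. A reference table named 38606 identifiers (89.2%). Members and lists were chosen with earlier results of these data known. All 53 members were named, and of each further list the 2 smallest p-values per direction among genes that passed, and all listed transcription factors.

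From these counts edgeR 4.0.16 (R 4.3.3) was run with filterByExpr (14101 genes), TMM scaling, and the quasi-likelihood test with robust estimation and group as the only term, adjusted by Benjamini-Hochberg with a threshold of 0.05. The pipeline was tested on simulated counts of independent libraries without a tag effect, which checks the code and not the calls in these data. CPM are relative to TMM-scaled library sizes. Values per kb use the principal transcript of another annotation (build GRCm38), joined by identifier. Paralogue ratios are log2((CPM + 0.5)/(CPM + 0.5)), tested by exact permutation with SciPy 1.17.1. Motifs were searched in RefSeq promoter windows of GRCm38.p6. Exons of 12 of the 53 genes overlap another gene's, 11 of them on the opposite strand. At 41162353 to 56316335 counts per library, counting error is small except for genes with few counts. Alternatives were DESeq2 1.42.0, limma-voom 3.58.1, other scalings and filters, a replicate block, a term for the tag and single libraries left out. Figures used matplotlib 3.10.9 under Python 3.11.15.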

Additional observations from a re-analysis of the deposited data

How the results depend on the processing

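Of the 47 genes that passed, 40 kept their call under all 15 alternatives. The other 7 lost it under at least 1: Sar1b and Gbf1 with library-size scaling, Ykt6 with library-size or upper-quartile scaling, Ergic1 under 10 alternatives, Copz2 under 8, Ergic2 under 6 and Tmed1 under 4. Scaling moved the whole comparison. With library size alone the median log2 change of all genes shifted by -0.17, and 2536 genes were higher and 5730 lower (30.7% of calls higher), against 3860 higher and 4130 lower (48.3%) with TMM; upper-quartile factors gave 3069 higher and 4963 lower (38.2%). Of the 53 genes, 39 were then higher and 4 lower with library size, 41 and 3 with upper-quartile factors, and 44 and 2 by DESeq2. Leaving out 1 library at a time gave 42 to 45 higher and 1 to 3 lower, with 1 lower without DMSO replicate 1 or 2 or DTG replicate 2 or 3. Over all genes it gave 3360 to 4368 higher and 3110 to 4150 lower.

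Signs reversed only for genes that did not pass: Sec24b (-0.14 with library size, -0.061 with upper-quartile factors), Copg2 (-0.11 and -0.036 by the same scalings), Arfgap2 (-0.053) and Golga2 (-0.016) with library size, Tmed4 (0.0059 by DESeq2, 0.0059 by RLE, 0.037 with the tag as a term, -0.061 to 0.063 without 1 library) and Gosr2 (-0.067 to 0.0098 without 1 library). Gosr2 passed as lower with library size (-0.20, adjusted p = 0.0336), and Golga2 as higher without DTG replicate 1. The cause was not tested. The sign of the 16 paralogue ratios could not turn when a library was left out, since the groups do not overlap; the Sec24d to Sec24c difference lay between 2.01 and 2.28 then. With exon-union lengths Sec24d held 43.5% of its family in DTG and 14.4% in DMSO, an alternative chosen after seeing the data.

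Deviations from the group mean correlated at -0.28, 0.0092 and -0.05 between DTG and DMSO libraries with the same replicate number, 1, 2 and 3. Each of these pairs joins a P4 and a P5 library, so the values cannot show if the cultures were paired. Pairs with the same tag correlated at 0.11, 0.17, 0.17 and 0.20, and the remaining pairs across tags at -0.16 and -0.16. Pairing by the number in the library name was not examined. With a replicate block, 3543 genes were higher and 3728 lower, and 43 and 2 of the 53. Kdelr3 rested on 62 to 92 counts per DMSO library.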
